A study of Homo sapiens with 24 samples.

Results

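The heat shock and chaperonin genes described here are 34 genes picked by name from a list of symbols. No measured value entered the rule, but the list was chosen with earlier results of these data known. All 34 are present among the 51715 genes of the count tables. They encode the heat shock factors HSF1 and HSF2, 9 proteins of the HSP70 and HSP110 families, both cytosolic HSP90 proteins, 6 J proteins, the nucleotide exchange factors BAG1 and BAG3, the adaptor STIP1, the small heat shock proteins HSPB1 and HSPB8, the 8 main subunits of the chaperonin CCT, and the mitochondrial chaperonin HSPD1 with its lid HSPE1. The group was named as cytosolic, but 3 of its members, HSPA9, HSPD1 and HSPE1, encode proteins of the mitochondrial matrix, and HSF1 and HSF2 are transcription factors.

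Molecular chaperones bind proteins that are not yet folded or have lost their fold. HSP70 proteins bind and release such clients in cycles driven by ATP, J proteins deliver clients to HSP70, nucleotide exchange factors reset it, and STIP1 passes clients on to HSP90. The chaperonin CCT is a ring-shaped complex that encloses clients such as actin and tubulin. HSF1 is the transcription factor that induces many of these genes on heat or proteotoxic stress, through heat shock elements in their promoters.

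Poly(A)-selected RNA was sequenced from 3 untreated human cancer cell lines: A-431, from an epidermoid carcinoma, U-251MG, from a glioblastoma, and U-2 OS, from an osteosarcoma. For each line the labels give 4 libraries of total RNA, taken from whole cells, and 4 libraries of cytoplasmic RNA, which makes 24 in all. Each group is a single cell line grown in culture, and the paper calls the 4 libraries of a group biological replicates, while the labels do not tie a library to a culture, so the p-values below measure the spread between libraries. Libraries are named by the number in their title: total 9 to 12 and cytoplasmic 21 to 24 for A-431, total 5 to 8 and cytoplasmic 17 to 20 for U-251MG, and total 1 to 4 and cytoplasmic 13 to 16 for U-2 OS.

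Gene counts summed to between 19918911 and 32394170 per library. The U-2 OS library labelled cytoplasmic 13 matched none of the 3 read totals of any entry in the study's read table and was left out, so that 23 libraries were tested; U-2 OS cytoplasmic 14 matched in 2 of the 3 values and the others in all 3. Of the 34 genes, 26 lay outside the range of the other 3 cytoplasmic U-2 OS libraries in library 13, 22 of them below it, where 70.9% of the 10419 genes with at least 10 CPM, counts scaled to a library of 1000000 counts, lay outside that range. The line labels were borne out by part of their markers: EGFR averaged 16426 CPM in total RNA of A-431, 241 CPM in U-251MG and 36.5 CPM in U-2 OS. However, KRT14 stood at 0.108 CPM in A-431, GFAP at 2.63 CPM in U-251MG and IBSP at 0 CPM in U-2 OS. Some markers were higher in another line. KRT14 and KRT17 were higher in U-2 OS than in A-431 (KRT17 at 447 against 111 CPM), and NES and OLIG2 higher there than in U-251MG. Of the osteosarcoma markers, RUNX2, SPARC, COL1A2 and CDH11 were higher in U-251MG than in U-2 OS (SPARC at 2187 against 1508 CPM). Only ALPL was highest in U-2 OS, at 2.08 CPM. Nuclear-retained RNA ran against the fraction labels. MALAT1, a nuclear long non-coding RNA, averaged 12.02 CPM in the libraries labelled total against 32.8 CPM in those labelled cytoplasmic in A-431, 20.4 against 52.0 CPM in U-251MG and 28.8 against 51.7 CPM in U-2 OS, and the nuclear NEAT1 showed the same order. Mitochondrially encoded MT-CO1, which is not a nuclear RNA, was also higher in the libraries labelled cytoplasmic, which does not run against the labels. Its means were 4767 against 13072 CPM in A-431, 4188 against 10728 CPM in U-251MG and 6569 against 11507 CPM in U-2 OS. By the study's own quality control, capillary electrophoresis, a peak specific to the nucleus was seen in total RNA and was missing from the cytoplasmic preparations kept. Directions between the fractions are therefore given for the libraries as labelled.

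Together the 34 genes took 1.36% ± 0.05 of all gene counts in A-431 total RNA and 1.21% ± 0.07 in A-431 cytoplasmic RNA (SD, n = 4 each). The shares were 1.503% ± 0.18 in total and 1.30% ± 0.09 in cytoplasmic RNA of U-251MG (SD, n = 4 each), and 1.41% ± 0.06 (SD, n = 4) in total and 1.28% ± 0.04 (SD, n = 3) in cytoplasmic RNA of U-2 OS. HSP90AB1, HSP90AA1 and HSPA8 alone held 46.6% of these counts. Per kilobase of coding transcript, a scale on which levels of different genes can be set side by side, HSP90AB1 averaged 888, HSPA8 731, HSP90AA1 638 and CCT6A 384 CPM per kb over the 6 groups. BAG1 was lowest on this scale, at 1.82 CPM per kb. The deposited RPKM values placed the same 4 genes on top, with HSP90AB1 at 9781 and HSPA8 at 4213 RPKM. They did not place BAG1 lowest: it averaged 196 RPKM, and HSPA2 was lowest at 8.35 RPKM. Relative to counts, RPKM was higher for genes with many annotated transcripts. Its median ratio to CPM per kilobase of all merged exons, a length other than the coding transcript, was 30.8 for genes with over 10 transcripts. For genes with 1 to 3 transcripts it was 2.65. Levels are therefore given as CPM, or as CPM per kb between genes.

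The lines differed in most of these genes, and did so in both fractions. Libraries were compared in one edgeR quasi-likelihood model, with calls at an adjusted p under 0.001. In total RNA, 10 of the 34 genes were higher and 16 lower in A-431 than in U-2 OS, where 65.9% of the 19948 genes tested were called (29.7% higher and 36.2% lower). A-431 against U-251MG gave 9 higher and 17 lower, with 57.6% of all genes called (28.3% higher and 29.3% lower), and U-251MG against U-2 OS gave 9 higher and 11 lower, with 62.9% of all genes called (28.0% higher and 34.9% lower). The shares of the 34 genes called thus lay near those of all genes in U-251MG against U-2 OS and somewhat above them in the other 2 comparisons. With a log2 ratio of at least 1 in size as well, 7, 7 and 8 of the 34 genes were called in these comparisons, where 39.3%, 30.7% and 36.1% of all genes were. The median log2 ratio of the 34 genes was -0.21 for A-431 against U-2 OS, -0.27 for A-431 against U-251MG and -0.0018 for U-251MG against U-2 OS, beside -0.11, -0.01 and -0.11 for all genes. Of the 34 genes, 20 did not pass a log2 ratio of 1 in any of the 3 comparisons.

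Cytoplasmic RNA gave similar counts. In A-431 against U-2 OS, 11 of the 34 genes were higher and 16 lower (64.3% of all genes called, 29.7% higher and 34.6% lower), in A-431 against U-251MG 9 were higher and 17 lower (58.6% of all genes called, 29.5% higher and 29.1% lower), and in U-251MG against U-2 OS 8 were higher and 10 lower (61.2% of all genes called, 27.1% higher and 34.1% lower). The genes past a log2 ratio of 1 were the same 7 as in total RNA for both A-431 comparisons. In U-251MG against U-2 OS they were the 8 of total RNA and also BAG1 and DNAJB6. At that size, 38.9%, 31.5% and 35.1% of all genes were called in cytoplasmic RNA. HSPA1A, for example, had a log2 ratio of 4.21 ± 0.10 for A-431 against U-251MG there, HSPB8 -4.26 ± 0.11 for U-251MG against U-2 OS, CCT6A 1.65 ± 0.09 and BAG3 1.82 ± 0.07 for A-431 against U-2 OS. Values between lines below are for total RNA.

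Among the HSP70 genes, the heat-inducible pair HSPA1A and HSPA1B came apart in 1 line on counts. The 2 genes lie side by side on chromosome 6 (GRCh37, 31783320 to 31785723 and 31795515 to 31798031) and encode nearly the same protein. In total RNA of A-431, HSPA1A had 118, 124, 104 and 106 CPM, with 6.60, 6.50, 5.16 and 6.50 CPM in U-251MG and 72.0, 69.9, 78.1 and 69.8 CPM in U-2 OS. Every U-251MG library was thus below every library of the other lines, with a log2 ratio of 4.16 ± 0.10 (SE) for A-431 against U-251MG (adjusted p = 7.8e-28) and -3.58 ± 0.10 for U-251MG against U-2 OS (adjusted p = 6.8e-26). HSPA1B had 93.1, 97.8, 94.5 and 94.3 CPM in A-431, 66.9, 57.4, 53.9 and 59.5 CPM in U-251MG and 56.3, 60.8, 56.9 and 60.1 CPM in U-2 OS. It was higher in A-431 than in either other line, by a log2 ratio of 0.65 ± 0.07 against U-251MG and 0.63 ± 0.07 against U-2 OS, while the ranges of U-251MG and U-2 OS overlapped.

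Within a library the ratio of HSPA1A to HSPA1B counts does not depend on scaling. It averaged 1.19 for A-431 total RNA (1.098 to 1.27), 0.104 for U-251MG (0.0958 to 0.113) and 1.24 for U-2 OS (1.15 to 1.37). Cytoplasmic RNA gave 1.33, 0.108 and 1.39. These genes are near-identical copies, and reads aligned to more than 1 place were not counted, so both values are uncertain. The mean deposited RPKM of HSPA1A was 53.3 and that of HSPA1B 196 for A-431 total RNA, 3.87 and 132 for U-251MG, and 63.2 and 120 for U-2 OS. On that scale too HSPA1A was lowest in U-251MG. The RPKM ratio of HSPA1A to HSPA1B ran from 0.020 to 0.044 in U-251MG total RNA, from 0.13 to 0.46 in A-431 and from 0.14 to 1.24 in U-2 OS. By RPKM the pair was thus apart in A-431 as well, and U-2 OS libraries differed widely.

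**Figure D1:**
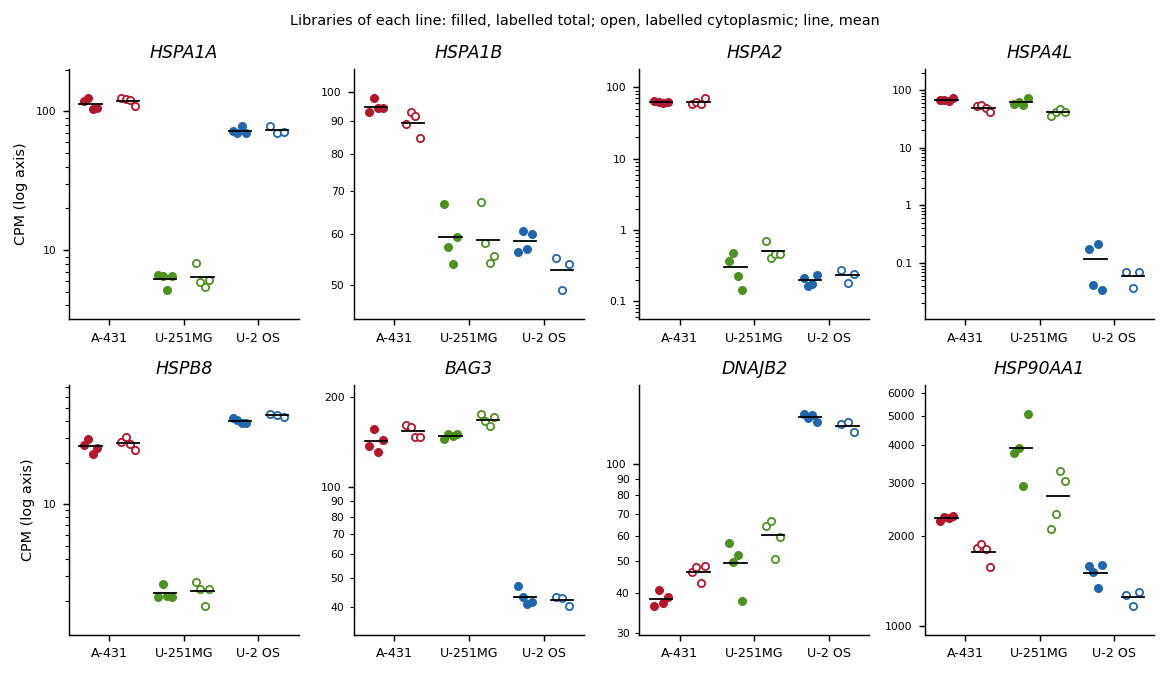
CPM on log axes for 8 genes in the 3 lines; each circle is a library, filled for libraries labelled total and open for those labelled cytoplasmic, and the line is the group mean. In total RNA HSPA1A lies between 5.16 and 6.60 CPM in U-251MG and HSPA2 lies between 60.02 and 64.2 CPM in A-431, each apart from the other lines.

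HSPA2, an HSP70 best known from the testis, exceeded 1 CPM in A-431 only. It had 64.2, 62.5, 60.02 and 61.6 CPM in total RNA of A-431, 0.364, 0.477, 0.224 and 0.144 CPM in U-251MG and 0.215, 0.166, 0.177 and 0.237 CPM in U-2 OS. From the summed counts, 6294 for A-431, 30 for U-251MG and 21 for U-2 OS, the level was 204 times that of U-251MG (95% interval 143 to 302) and 310 times that of U-2 OS (203 to 501). These exact conditional binomial intervals cover counting error only. The constitutive HSPA8, by contrast, had 1445, 1719, 1397 and 1602 CPM in A-431, 1995, 2024, 1727 and 2638 CPM in U-251MG and 1792, 1662, 1577 and 1736 CPM in U-2 OS. It was lower in A-431 than in U-251MG (log2 ratio -0.47 ± 0.10, adjusted p = 2.0e-04), and no other pair of lines passed the test. HSPA14, an HSP70 bound to ribosomes, was lowest in U-251MG, at a mean of 64.5 CPM against 77.6 CPM in U-2 OS (log2 ratio -0.30 ± 0.06, adjusted p = 5.6e-05) and below the 81.8 CPM of A-431.

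The 3 HSP110 genes, whose products exchange the nucleotide of HSP70, followed different orders. HSPA4L was close to 0 in U-2 OS: it had 66.6, 65.9, 63.6 and 72.1 CPM in total RNA of A-431, 58.1, 60.9, 55.5 and 71.3 CPM in U-251MG and 0.172, 0.0414, 0.213 and 0.0339 CPM in U-2 OS. The U-2 OS values are between 1 and 6 counts per library and 12 counts in all, which puts the level in A-431 at 585 times (95% interval 335 to 1133) and that in U-251MG at 544 times (311 to 1053) the level in U-2 OS. HSPA4L did not pass the filter on low counts for the fraction comparison in U-2 OS, and neither did HSPA2. Its relative HSPA4 was highest in U-2 OS, with 353, 357, 356 and 380 CPM in A-431, 382, 402, 370 and 463 CPM in U-251MG and 534, 496, 477 and 543 CPM in U-2 OS. Log2 ratios were -0.57 ± 0.07 for A-431 against U-2 OS and -0.38 ± 0.07 for U-251MG against U-2 OS (adjusted p = 2.2e-09 and 4.7e-06). HSPH1 had 218, 224, 216 and 225 CPM in A-431, 383, 393, 336 and 472 CPM in U-251MG and 348, 334, 312 and 352 CPM in U-2 OS, and was lower in A-431 by a log2 ratio of -0.87 ± 0.10 against U-251MG and -0.68 ± 0.10 against U-2 OS.

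The promoters of 31 of the 34 genes were found in RefSeq (GRCh38.p14, 250 bases before to 50 after the start site); HSF1, HSPA14 and CCT6A had no entry. The pattern of 3 inverted heat shock units, GAANNTTCNNGAA or TTCNNGAANNTTC, searched on both strands, stood in 3 of them, those of DNAJA1, DNAJB6 and HSPA8, where 0.487% of all 27305 promoters of that length hold it. The shorter pattern of 2 units, GAANNTTC or TTCNNGAA, which the longer one contains, stood in 10 of the 31 and in 13.7% of all promoters. The stretches below are shown because they carry these patterns in the inducible and constitutive HSP70 genes and in both J protein genes, and because HSPA1A and HSPA1B differed in U-251MG; capitals mark the pattern, and each is written from 5' to 3' on the strand of its gene.
DNAJA1 (chr9:33025268-33025297, plus strand): gccgggcgGAACTTTCCAGAAcgctcggtg
DNAJB6 (chr7:157336865-157336894, plus strand): agagccgaGAACCTTCGCGAAggtggggcg
HSPA8, upper site (chr11:123062345-123062374, minus strand): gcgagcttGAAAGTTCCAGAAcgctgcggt
HSPA8, lower site (chr11:123062170-123062199, minus strand): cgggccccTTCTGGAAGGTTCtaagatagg
HSPA1A (chr6:31815426-31815455, plus strand): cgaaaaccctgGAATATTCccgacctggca
HSPA1B (chr6:31827622-31827651, plus strand): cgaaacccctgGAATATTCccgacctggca

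The patterns begin at base -131 from the start site in DNAJB6, at -230 and -55 in HSPA8, at -106 in HSPA1A and at -105 in HSPA1B. In DNAJA1 the pattern begins at base 3, after the start site. The promoters of HSPA1A and HSPA1B thus carry the same 2-unit pattern at nearly the same place, while their levels in U-251MG were 6.19 ± 0.69 and 59.4 ± 5.51 CPM (SD, n = 4). A match is a description of the letters and not a measurement of binding.

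The heat shock factors themselves differed between lines. HSF1 had 39.8, 48.7, 37.5 and 39.0 CPM in total RNA of A-431, 56.8, 56.4, 54.0 and 50.3 CPM in U-251MG and 88.4, 94.2, 98.0 and 83.3 CPM in U-2 OS. No 2 lines overlapped. Log2 ratios were -1.21 ± 0.07 for A-431 against U-2 OS, -0.43 ± 0.07 for A-431 against U-251MG and -0.78 ± 0.07 for U-251MG against U-2 OS (adjusted p = 1.8e-16, 3.7e-06 and 1.0e-11). HSF2, a relative with roles in development, had 15.8, 15.2, 17.1 and 14.7 CPM in A-431, 30.9, 37.8, 34.1 and 43.3 CPM in U-251MG and 26.3, 29.3, 27.9 and 31.8 CPM in U-2 OS. It was lower in A-431 by a log2 ratio of -1.25 ± 0.10 against U-251MG and -0.95 ± 0.10 against U-2 OS, and the other 2 lines overlapped. The order of HSF1 (U-2 OS, U-251MG, A-431) was not the order of HSPA1A (A-431, U-2 OS, U-251MG).

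Of the 2 cytosolic HSP90 genes, HSP90AA1, the inducible form, stood out in U-251MG. It had 2235, 2308, 2297 and 2326 CPM in total RNA of A-431, 3776, 3933, 2929 and 5094 CPM in U-251MG and 1577, 1506, 1335 and 1592 CPM in U-2 OS. The U-251MG libraries were all above the others but differed among themselves by more than those of any other of the 30 genes at 10 CPM or more there (coefficient of variation 22.6%, median 10.2%). The log2 ratio was 1.35 ± 0.14 for U-251MG against U-2 OS (adjusted p = 2.0e-08) and -0.81 ± 0.14 for A-431 against U-251MG (adjusted p = 2.3e-05). HSP90AB1, the constitutive form, had 2816, 2978, 2794 and 2966 CPM in A-431, 2226, 2084, 1934 and 2410 CPM in U-251MG and 2791, 2592, 2336 and 2717 CPM in U-2 OS, and was lowest in U-251MG (log2 ratio -0.31 ± 0.06 for U-251MG against U-2 OS). The ratio of HSP90AA1 to HSP90AB1 counts within a library averaged 0.794 for A-431 total RNA, 1.80 for U-251MG and 0.576 for U-2 OS. On counts, U-251MG was the only line above 1, in every library of both fractions. These ratios are not scaled for length, and the transcripts have 3510 and 2674 bases. On deposited RPKM the ratio in U-251MG averaged 1.25 in total RNA and 0.89 in cytoplasmic RNA (0.67 to 1.13), still the highest of the lines. STIP1, which links HSP70 to HSP90, averaged 286 CPM in A-431, 282 CPM in U-251MG and 328 CPM in U-2 OS, and was lower than in U-2 OS by log2 ratios of -0.27 ± 0.06 in A-431 and -0.26 ± 0.06 in U-251MG.

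Among the J proteins and BAG proteins, BAG3 and DNAJB2 differed by log2 ratios of over 1 in size from U-2 OS in both other lines. BAG3, which couples HSP70 to selective autophagy, had 137, 156, 132 and 144 CPM in total RNA of A-431, 146, 150, 149 and 150 CPM in U-251MG and 46.9, 43.1, 40.8 and 41.4 CPM in U-2 OS. It was higher than in U-2 OS by a log2 ratio of 1.66 ± 0.06 in A-431 and 1.75 ± 0.06 in U-251MG (adjusted p = 2.6e-22 and 8.3e-23), and A-431 and U-251MG overlapped. DNAJB2, a J protein known from neurons, had 36.4, 40.7, 37.2 and 38.8 CPM in A-431, 57.1, 49.96, 52.5 and 37.6 CPM in U-251MG and 143, 139, 142 and 135 CPM in U-2 OS. It was lower than in U-2 OS by a log2 ratio of -1.94 ± 0.09 in A-431 and -1.55 ± 0.08 in U-251MG.

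The other J protein genes had orders of their own. DNAJB4 had 33.8, 29.97, 39.9 and 30.7 CPM in total RNA of A-431, 67.0, 75.5, 69.7 and 78.2 CPM in U-251MG and 67.4, 75.1, 72.0 and 77.2 CPM in U-2 OS, so that A-431 was below both other lines, which overlapped (log2 ratio -1.19 ± 0.09 against U-2 OS and -1.14 ± 0.09 against U-251MG). DNAJB6, a suppressor of protein aggregation, had 88.8, 92.2, 90.4 and 85.7 CPM in A-431, 151, 133, 136 and 150 CPM in U-251MG and 81.1, 75.5, 69.7 and 78.7 CPM in U-2 OS. DNAJB1, the J partner of inducible HSP70, had 112, 125, 113 and 118 CPM in A-431, 170, 162, 157 and 155 CPM in U-251MG and 96.4, 87.3, 80.4 and 88.0 CPM in U-2 OS. Both were highest in U-251MG, by log2 ratios of 0.86 ± 0.06 and 0.83 ± 0.06 against U-2 OS. DNAJA1, an abundant partner of HSPA8, was highest in U-2 OS, at a mean of 499 CPM, against 318 CPM in A-431 and 370 CPM in U-251MG, and DNAJA2 in A-431, at 125 CPM, against 100.2 CPM in U-251MG and 96.6 CPM in U-2 OS. On counts, BAG1, a nucleotide exchange factor of HSP70, was low throughout, at 7.93, 7.94 and 5.10 CPM in A-431, U-251MG and U-2 OS. It was higher than in U-2 OS by log2 ratios of 0.57 ± 0.12 in A-431 and 0.60 ± 0.12 in U-251MG. Reads of DNAJB1 were counted without regard to strand, and its exons overlap those of TECR on the other strand.

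HSPB8, a small heat shock protein that works with BAG3, had 26.7, 29.7, 22.9 and 25.5 CPM in total RNA of A-431, 2.13, 2.62, 2.15 and 2.12 CPM in U-251MG and 42.3, 40.9, 38.8 and 38.7 CPM in U-2 OS. The 3 lines did not overlap, with a log2 ratio of 3.49 ± 0.11 for A-431 against U-251MG, -4.18 ± 0.11 for U-251MG against U-2 OS and -0.69 ± 0.08 for A-431 against U-2 OS (adjusted p = 3.3e-24, 2.3e-26 and 4.8e-09). HSPB8 and its partner BAG3 thus stood in different orders over the lines. HSPB1, or HSP27, averaged 190 ± 30.97 CPM in A-431, 178 ± 28.2 CPM in U-251MG and 263 ± 12.1 CPM in U-2 OS (SD, n = 4 each), and was lower than in U-2 OS by log2 ratios of -0.54 ± 0.12 in A-431 and -0.61 ± 0.12 in U-251MG. Its counts are uncertain, since the separate counts of the pseudogene HSPB1P2 were as large as 30.2% to 44.9% of those of HSPB1 in the 6 groups.

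Of the 8 chaperonin subunits, CCT6A was far above the rest in A-431. It had 1847, 1926, 1932 and 1960 CPM in total RNA of A-431, 664, 673, 554 and 752 CPM in U-251MG and 614, 606, 571 and 643 CPM in U-2 OS. The log2 ratio was 1.59 ± 0.08 for A-431 against U-2 OS and 1.51 ± 0.08 for A-431 against U-251MG (adjusted p = 8.1e-18 and 3.8e-17), and U-251MG and U-2 OS overlapped. Per kilobase, CCT6A was 4.73 times the median of the other 7 subunits in A-431 total RNA, 1.41 times in U-251MG and 1.27 times in U-2 OS. In A-431 the other 7 subunits were between 90.7 and 230.2 CPM per kb, and CCT6A was at 742 ± 18.9 CPM per kb (SD, n = 4).

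**Figure D2:**
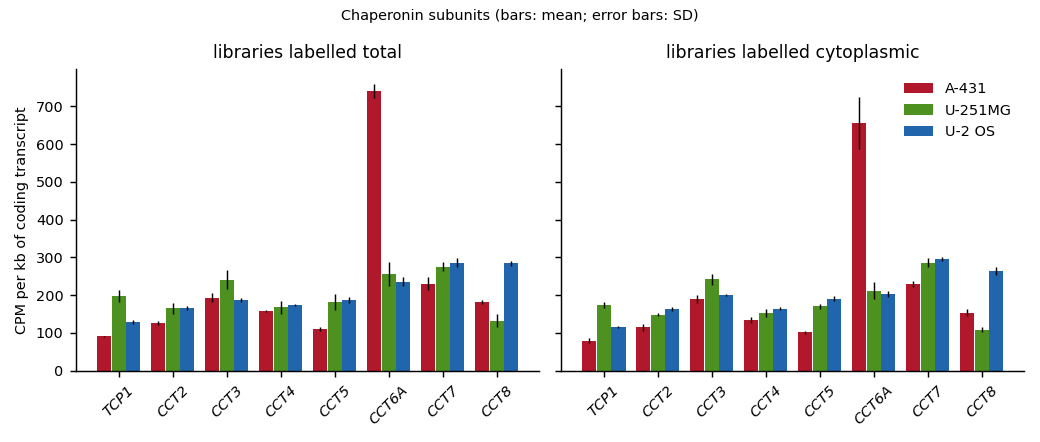
CPM per kilobase of coding transcript for the 8 chaperonin subunits, as mean and SD over the libraries of a line (n = 4, except n = 3 for cytoplasmic U-2 OS), for libraries labelled total on the left and cytoplasmic on the right. CCT6A in A-431 stands at 742 CPM per kb in total RNA and 656 CPM per kb in cytoplasmic RNA, above every other bar.

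CCT6A lies on chromosome 7 (GRCh37, 56119378 to 56131682), 840057 bases past the end of EGFR. Within 1000000 bases on either side, 12 of 19 expressed neighbours were at least 2-fold higher in A-431 than in U-2 OS, and 10 of 18 than in U-251MG, on the mean CPM with 0.1 added, where 18% and 17.3% of all genes were. The neighbour LANCL2 averaged 490 CPM in A-431 against 38.7 CPM in U-251MG and 39.2 CPM in U-2 OS, and CHCHD2 634 CPM in A-431 against 135 CPM in U-251MG and 151 CPM in U-2 OS. Such a neighbourhood was not particular to CCT6A. In A-431 against U-251MG, 10 of 12 neighbours of HSPA2 were at least 2-fold higher and 5 of 7 neighbours of HSF2 at least 2-fold lower. Against U-2 OS, 2 of 12 neighbours of HSPA2 were 2-fold higher. The shares of the other genes past a log2 ratio of 1 were lower than those of CCT6A. The part of the neighbourhood in the level of CCT6A was not tested.

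The other subunits were mostly lower in A-431. TCP1 had 214, 216, 209 and 214 CPM in total RNA of A-431, 451, 460, 432 and 518 CPM in U-251MG and 312, 305, 286 and 304 CPM in U-2 OS, with a log2 ratio of -1.16 ± 0.06 for A-431 against U-251MG. Exons of TCP1 and of ACAT2, on the other strand, overlap over 454 bases, and the counts ignore strand. CCT5 had 351, 371, 345 and 376 CPM in A-431, 556, 618, 530 and 684 CPM in U-251MG and 651, 595, 597 and 632 CPM in U-2 OS, with a log2 ratio of -0.85 ± 0.07 for A-431 against U-2 OS. CCT8 had 326, 332, 337 and 353 CPM in A-431, 227, 248, 214 and 288 CPM in U-251MG and 530, 520, 512 and 544 CPM in U-2 OS, and was thus lowest in U-251MG (log2 ratio -1.15 ± 0.07 for U-251MG against U-2 OS, adjusted p = 3.4e-16). Apart from CCT6A, 5 of the subunits (TCP1, CCT2, CCT5, CCT7 and CCT8) fell in A-431 against U-2 OS, and CCT3 and CCT4 had log2 ratios of -0.03 ± 0.07 and -0.22 ± 0.06 that did not pass. The pseudogenes CCT8P1 and TCP1P1, counted separately, had counts of at most 58.3% and 39.3% the size of those of CCT8 and TCP1, and with pseudogene counts added to their parents the numbers of genes called between lines were the same.

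The 3 mitochondrial members also differed. HSPA9, the HSP70 of the mitochondrial matrix, had 356, 364, 365 and 374 CPM in total RNA of A-431, 630, 601, 718 and 639 CPM in U-251MG and 270, 266, 247 and 275 CPM in U-2 OS. The lines did not overlap, and the log2 ratio was 1.25 ± 0.07 for U-251MG against U-2 OS and -0.86 ± 0.07 for A-431 against U-251MG (adjusted p = 3.2e-17 and 5.4e-13). HSPD1, the mitochondrial chaperonin, averaged 426 CPM in A-431, 525 CPM in U-251MG and 455 CPM in U-2 OS, and its lid HSPE1 68.1, 105 and 93.6 CPM. Both were lower in A-431 than in U-251MG, by log2 ratios of -0.33 ± 0.07 and -0.65 ± 0.08. The genes are neighbours that overlap on opposite strands, and the separate counts of the pseudogene HSPD1P1 reached 43.6% of the size of those of HSPD1.

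Between the fractions the genes differed far less than between lines. Each line was fitted by itself with edgeR's quasi-likelihood test, at an adjusted p under 0.001. In A-431, 6 of the 34 genes were higher and 1 was lower in the libraries labelled total than in those labelled cytoplasmic, where 19.7% of the 16376 genes tested were called (10.2% higher and 9.51% lower). U-251MG gave 2 higher and 1 lower, with 12.9% of all genes called (5.93% higher and 6.98% lower). U-2 OS gave 6 higher and 1 lower of the 32 genes tested, with 8.36% of all genes called (4.75% higher and 3.61% lower). The median log2 ratio of the genes was 0.13, 0.14 and 0.12 in A-431, U-251MG and U-2 OS, beside -0.01, 0.00049 and -0.0013 for all genes tested, and no ratio that passed exceeded 0.57 in size. In bulk RNA a lower level per cell and fewer cells with the RNA cannot be told apart.

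The number of genes called depended on single libraries, and the number over all genes moved with it. In A-431, where 3234 of all genes were called with every library, 3 of the 34 genes were called without total 9 or total 12 (1815 and 1923 of all genes) and 4 without cytoplasmic 22 or cytoplasmic 23 (2244 and 2241 of all genes). In U-251MG, with 2083 of all genes called at first, 0 were called without cytoplasmic 18 (533 of all genes) and 1 without total 6, cytoplasmic 17 or cytoplasmic 20 (695, 971 and 693 of all genes). In U-2 OS, with 1509 of all genes called at first, 2 were called without cytoplasmic 14 or 15 (558 and 459 of all genes), 3 without total 2 or total 4 (730 and 812), 4 without total 1 (1330) and 11 without total 3 (2612).

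Counted by ranges instead, 16 of the 34 genes were higher in every A-431 library labelled total than in every one labelled cytoplasmic and 2 were lower, where the groups did not overlap for 48.8% of all genes with a mean of at least 1 CPM (3721 higher and 3321 lower of 14422). The counts were 11 and 3 in U-251MG, with 47.3% of all genes (24.4% higher and 22.9% lower), and 13 and 3 in U-2 OS, with 36.3% (17.2% higher and 19.1% lower). The 18, 14 and 16 genes without overlap were thus not far from the share of all genes in A-431 and U-251MG and above it in U-2 OS. Most of them were on the higher side, where the share of the 34 genes exceeded that of all genes in each line.

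**Figure D3:**
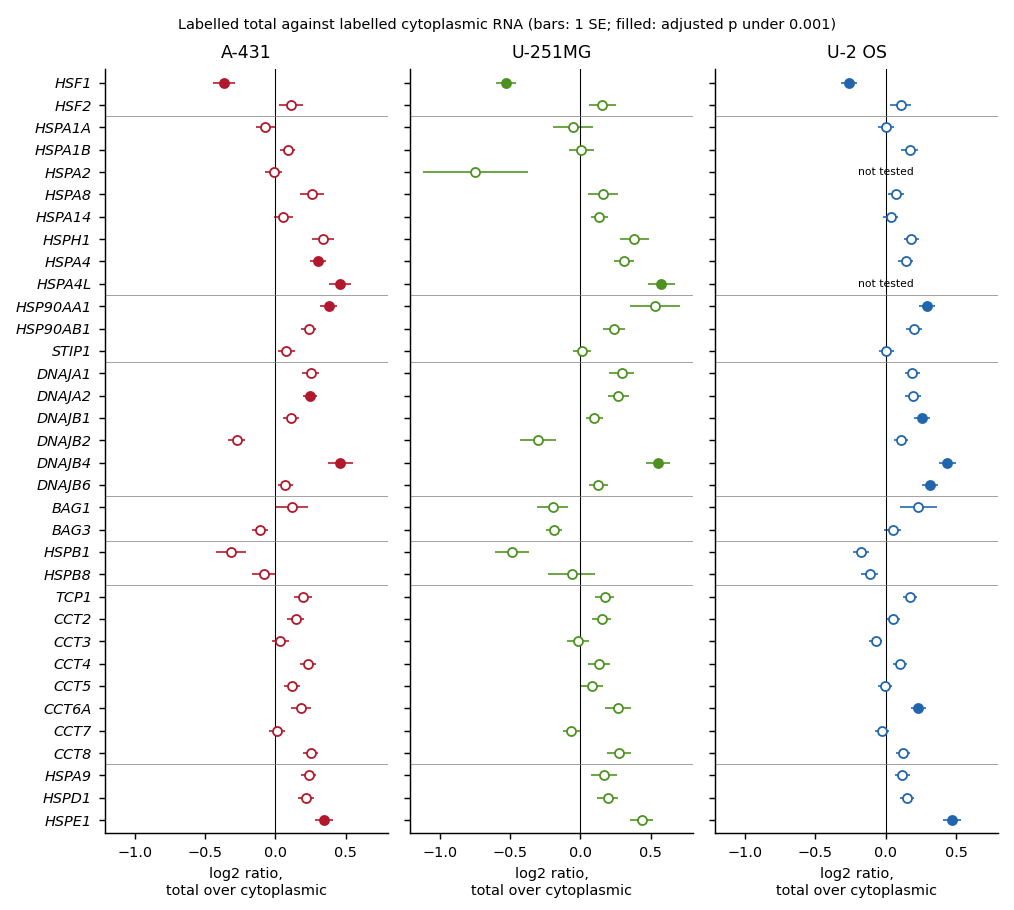
Log2 ratio of libraries labelled total over those labelled cytoplasmic for each gene in A-431, U-251MG and U-2 OS, with bars of 1 SE; filled circles passed an adjusted p of 0.001. HSF1 is the only filled circle left of 0 in any line, at -0.36, -0.53 and -0.26, and DNAJB4 is filled on the right in all 3 lines.

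HSF1 was lower in the libraries labelled total in all 3 lines. Beside the total values given above, it had 54.6, 50.7, 50.2 and 57.9 CPM in cytoplasmic RNA of A-431, 71.8, 83.5, 77.2 and 80.1 CPM in U-251MG and 111, 113 and 108 CPM in U-2 OS, and the fractions did not overlap. The log2 ratio was -0.36 ± 0.08 in A-431 (adjusted p = 0.00095), -0.53 ± 0.07 in U-251MG (adjusted p = 0.00017) and -0.26 ± 0.05 in U-2 OS (adjusted p = 0.00046). Exons of HSF1 and of DGAT1, on the other strand, overlap over 137 bases, and the counts ignore strand. HSF2 did not pass in any line, with log2 ratios between 0.11 and 0.15.

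DNAJB4 was the only gene called higher in the libraries labelled total in all 3 lines. By ranges, HSPD1, HSPE1, DNAJA2, CCT8 and TCP1 also had every total library above every cytoplasmic one in each line, but none of them passed in all 3. In cytoplasmic RNA it had 26.7, 23.7, 25.1 and 22.4 CPM in A-431, 47.4, 43.1, 57.2 and 49.7 CPM in U-251MG and 52.0, 52.5 and 59.3 CPM in U-2 OS, each below every total library of its line. The log2 ratio was 0.46 ± 0.09, 0.55 ± 0.09 and 0.44 ± 0.06 (adjusted p = 0.00040, 0.00036 and 1.8e-06). HSPA4L was higher in both lines in which it was tested: its cytoplasmic values were 52.3, 54.0, 48.2 and 41.1 CPM in A-431 and 34.6, 41.6, 46.2 and 41.6 CPM in U-251MG, which gave log2 ratios of 0.46 ± 0.08 and 0.57 ± 0.10 (adjusted p = 0.00015 and 0.00052).

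HSP90AA1 was higher in the libraries labelled total of A-431 and U-2 OS. Its cytoplasmic values were 1823, 1880, 1797 and 1570 CPM in A-431 and 1264, 1163 and 1297 CPM in U-2 OS, all below the total ones, which gave log2 ratios of 0.38 ± 0.06 and 0.30 ± 0.06 (adjusted p = 0.00011 and 0.00023). For U-251MG the cytoplasmic values were 2109, 2369, 3284 and 3049 CPM, which overlapped the total ones, and the log2 ratio of 0.53 ± 0.18 did not pass (adjusted p = 0.034). The first 2 of these cytoplasmic libraries were run on flow cell B and the other 2 on flow cell A, as the study's read table gives it. HSPE1 was also higher in 2 lines: its cytoplasmic values were 54.9, 56.1, 56.0 and 47.6 CPM in A-431 and 72.4, 62.3 and 70.8 CPM in U-2 OS, against total values of 64.99, 69.99, 67.8 and 69.5 CPM and 99.5, 95.9, 81.5 and 97.4 CPM. The log2 ratios were 0.35 ± 0.06 and 0.47 ± 0.06, and the 0.43 ± 0.08 of U-251MG did not pass (adjusted p = 0.0012).

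The remaining calls were each made in 1 line. In A-431 these were HSPA4, with cytoplasmic values of 306, 303, 299 and 267 CPM and a log2 ratio of 0.30 ± 0.06, and DNAJA2, with a log2 ratio of 0.25 ± 0.05. In U-2 OS they were DNAJB6, with 62.9, 62.7 and 60.8 CPM in cytoplasmic RNA (log2 ratio 0.32 ± 0.06), DNAJB1, with 78.4, 73.2 and 72.3 CPM (0.26 ± 0.06), and CCT6A, with 535, 504 and 537 CPM (0.23 ± 0.05). All of these lay below the total values of their line. The chaperonin subunits had ratios from -0.07 for CCT3 in U-2 OS to 0.28 for CCT8 in U-251MG, and CCT6A in U-2 OS was the only one of them to pass.

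Flow cell and fraction went together. Flow cell A held all total libraries, and B all cytoplasmic libraries of A-431, so in that line fraction and flow cell cannot be told apart. Within flow cell A, with 2 cytoplasmic libraries of U-251MG and 1 of U-2 OS, 0 and 1 of the genes were called, beside 52 and 126 of all genes, in edgeR fits that take the spread of a lone library from the other group. The log2 ratios there were -0.54 for HSF1, 0.43 for DNAJB4 and 0.47 for HSPA4L in U-251MG, and -0.28 for HSF1, 0.49 for DNAJB4 and 0.37 for HSPE1 in U-2 OS.

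The ratio of a gene between the fractions fell with the GC content of its transcript, less closely in U-2 OS than in the other lines. Genes of the 34 ranged from 32.7% GC (DNAJB4) to 65.2% GC (HSPB1), with a median of 44.2% against 48.2% for the 15186 genes with a mean of at least 1 CPM. In A-431, 17 of the 18 genes under 45% GC had a ratio above 0 and 2 of the 7 over 55% GC did. The counts were the same in U-251MG, and 15 of 16 and 5 of 7 in U-2 OS. Across genes, Pearson's r was -0.85 in A-431, -0.70 in U-251MG (34 genes each) and -0.57 in U-2 OS (32 genes), as a description, since the genes share libraries and are not replicates. Spearman's rho with GC content was -0.77, -0.80 and -0.46 in A-431, U-251MG and U-2 OS. With transcript length it was 0.28, 0.19 and 0.41, so in U-2 OS the 2 were close in size.

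**Figure D4:**
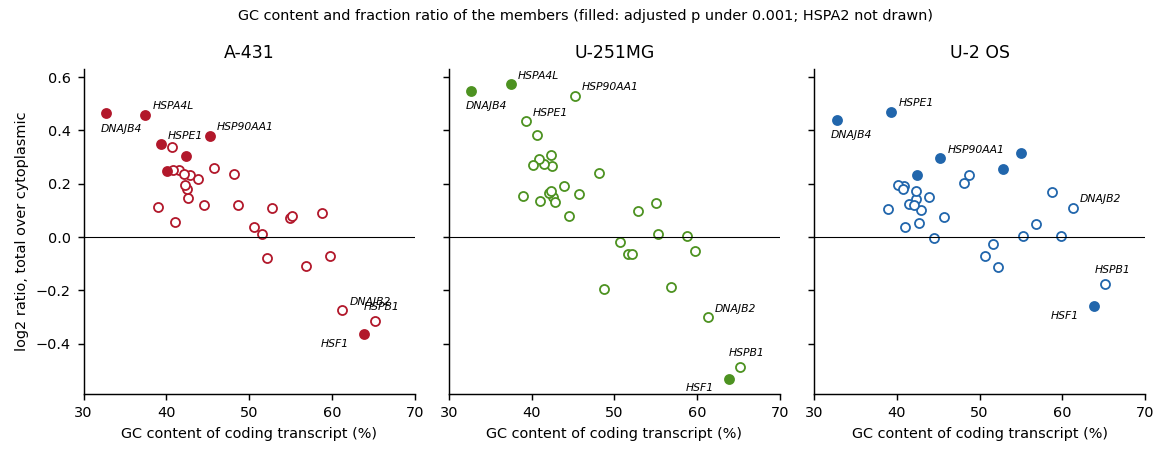
Log2 ratio of libraries labelled total over cytoplasmic (vertical axis) against the GC content of the coding transcript in percent (horizontal axis), one circle per gene and one panel per line; filled circles passed an adjusted p of 0.001, and HSPA2 is not drawn. GC-rich HSF1 and HSPB1 lie lowest and AT-rich DNAJB4 lies among the highest in each line.

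GC-rich and GC-poor genes of the whole series showed the same tilt. In each library the median of GC-poor genes was subtracted from the median of GC-rich genes, in log2 units relative to the line. This difference was between -0.81 and -0.03 in the libraries labelled total and between 0.08 and 0.69 in those labelled cytoplasmic. With an offset for transcript GC content in each library, 2, 0 and 5 of the genes were called in A-431, U-251MG and U-2 OS, beside 1296, 240 and 551 of all genes (3234, 2083 and 1509 without the offset), and the medians were 0.06, 0.04 and 0.06. HSF1 then had log2 ratios of -0.0035, 0.03 and -0.01, and DNAJB4 0.09, 0.03 and 0.14. HSP90AA1 in A-431 (0.25), and DNAJB1 (0.32), DNAJB6 (0.42) and HSPE1 (0.30) in U-2 OS, still passed.

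No member's fraction ratio differed between lines by the interaction term of the 6-group edgeR model at an adjusted p under 0.05. The count was 0 of 34 for A-431 against U-2 OS, A-431 against U-251MG and U-251MG against U-2 OS, where 2.12%, 0.160% and 1.67% of all genes were called (0.947%, 0.120% and 0.907% higher, and 1.17%, 0.0401% and 0.762% lower), and DESeq2 also called 0. At an unadjusted p under 0.05 there were 2, 1 and 4 genes. DNAJB2 came closest, with a difference in log2 ratio of -0.39 ± 0.12 for A-431 against U-2 OS and -0.39 ± 0.12 for U-251MG against U-2 OS (adjusted p = 0.087 and 0.080).

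Other chaperone genes give the setting. Of 14 chaperones of the endoplasmic reticulum, 8 rose in the libraries labelled total of A-431, 4 in those of U-251MG and 4 in those of U-2 OS, and none fell, with medians of 0.28, 0.23 and 0.17. Among them HSP90B1, the HSP90 of that compartment, had log2 ratios of 0.54 ± 0.06, 0.43 ± 0.07 and 0.30 ± 0.06. Over all genes tested, 10.2%, 5.93% and 4.75% were higher and 9.51%, 6.98% and 3.61% were lower in A-431, U-251MG and U-2 OS, and every list here is read beside those shares. Of 17 further co-chaperones of HSP70, 1, 1 and 1 rose, BAG4 each time, and 0, 2 and 1 fell. Of 10 prefoldin genes and chaperonin helpers, 0, 1 and 2 rose and 1, 0 and 1 fell. Of 9 mitochondrial chaperone and import genes, only CLPP was called, lower in A-431 (-0.39 ± 0.08). Of 10 other small heat shock and HSP70 family genes, 6, 7 and 8 were tested in A-431, U-251MG and U-2 OS, and HSPA13 rose in each line and HSF4 fell in A-431.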

How the data were processed

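RNA sequencing of 24 libraries was analysed from 2 kinds of deposited files. The authors used TopHat 1.1.4 (genome hg19, GRCh37), SAMtools 0.1.8 and HTSeq 0.4.6, the last run unstranded and strict on exons; the deposited counts are raw reads per Ensembl gene, and 6 entries per file that name no gene, with 25.9% to 33.6% of reads, were left out. The deposited RPKM values were made by the authors with rpkmforgenes on the same alignments. The paper describes single reads and RNeasy columns, the labels Trizol and paired ends.

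CPM used TMM factors over all libraries. Counts of 23 libraries were tested with edgeR 4.0.16 (R 4.3.3; TMM, filterByExpr, the quasi-likelihood test with robust estimation, p-values adjusted by Benjamini-Hochberg over all genes tested), tested on simulated data. Calls were made at an adjusted p under 0.001, and under 0.05 for interactions. DESeq2 1.42.0 and limma 3.58.1 served as alternatives. Transcript length, GC content and coordinates are from GENCODE v44lift37, and promoters from RefSeq. Values in every library are given for up to 5 genes per comparison and direction with the largest ratio among those called, the 4 genes highest in RPKM, genes not tested, and the chaperonin subunits as a group; of other lists, up to 3 called genes. Members and lists were chosen with earlier results of these data known. The co-chaperones of HSP90 are not reported here.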

Additional observations from a re-analysis of the deposited data

Results flagged for a closer look

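Among 170 groups of 4 libraries, 9 had a library whose gap to the nearest other exceeded Dixon's 95% critical value; chance flags about 1 in 20 groups. Of these, 3 concern A-431 cytoplasmic 24: HSPB1 at 285 CPM against 217 to 228 in the other 3 libraries, HSPE1 at 47.6 CPM against 54.9 to 56.1, and CCT4 at 289 CPM against 326 to 330. In A-431 total RNA, HSPA4 had 380 CPM in library 12, against 353 to 357 in the others. In U-251MG total RNA, HSPA1A had 5.16 CPM in library 7 against 6.50 to 6.60, HSPB8 2.62 CPM in library 6 against 2.12 to 2.15, and HSPD1 608 CPM in library 8 against 489 to 507. In U-251MG cytoplasmic RNA, HSPD1 had 416 CPM in library 18 against 469 to 471, and CCT5 525 CPM in library 17 against 571 to 574.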

How the results depend on the processing

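No paired analysis was possible because the title numbers run from 1 to 24 and no groups share one. The numbers of genes called between lines stayed within 1.5 times under every alternative run, and leaving out each library gave 24 to 28 (A-431 against U-2 OS), 24 to 27 (A-431 against U-251MG) and 18 to 20 (U-251MG against U-2 OS) in total RNA, and 24 to 29, 25 to 26 and 17 to 18 in cytoplasmic RNA. The numbers called between fractions (7 in A-431, 3 in U-251MG, 7 in U-2 OS) moved. In A-431 they were 14 with DESeq2, 12 with no filter, 0 with limma on log2(RPKM + 1), 4 with one model over all groups and 2 with the GC offset; in U-251MG 6, 5, 0, 8 and 0, and 0 within flow cell A; in U-2 OS 0 with limma, 1 with one model, 1 within flow cell A (an alternative chosen after seeing the data) and 4 with all 4 deposited cytoplasmic libraries. Leaving out each library gave 3 to 9, 0 to 3 and 2 to 11. For interactions, no filter gave 1 in A-431 against U-2 OS and 1 in U-251MG against U-2 OS, and leaving out each library gave 0 to 1 in these and 0 to 0 in A-431 against U-251MG. The median level per length was 1200 RPKM as deposited and 89.5 CPM per kb, chosen after seeing the data. Reversed log2 ratios were that of HSF1 in U-251MG with the GC offset (0.0289) and, with limma on RPKM, DNAJB4 in U-2 OS (-0.27), HSPA1A in A-431 against U-2 OS total RNA (-0.0865) and DNAJA2 in A-431 against U-2 OS cytoplasmic RNA (-0.101); the causes were not tested. Adding pseudogene counts to their parents, also chosen after seeing the data, left the numbers called at 7, 3 and 7 between fractions. Sequencing depth limits HSPA2 and HSPA4L where they had 1 to 19 counts in a library.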
